A study of Mus musculus with 18 samples.

Results

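The complement genes described here are 9 transcripts read from a gene count table of mouse frontal cortex, chosen by gene name as complement components, receptors and the integrin pair that binds a complement fragment. They are the C1q chain genes C1qa, C1qb and C1qc, the components C3 and C4b, the fragment receptors C3ar1 and C5ar1, and the integrin subunits Itgam and Itgb2. The table lists 55487 genes, of which 17414 passed the filter on low counts, and 9 of 9 complement members were among them. The genes were picked from the table by name, and the set was proposed with earlier results of these data known.

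RNA was sequenced from 18 mice aged 9 to 10 months, 6 of each of 3 genotypes with 3 females and 3 males in each. Per the study's methods, WT mice were Cre-negative with Fntb flanked by loxP sites on both alleles, whereas the design text of the deposit calls them C57BL/6J. APP/PS1 mice carry a pair of familial Alzheimer's disease transgenes, among them amyloid precursor protein with the Swedish mutation (APPswe), and hold the floxed Fntb alleles without Cre. APP/PS1/FTnKO mice carry the same transgenes and floxed alleles plus Cre under the CaMKIIα promoter, which acts in forebrain neurons, so that glia and other cells keep Fntb, the gene of the farnesyltransferase beta subunit. Each sample is 1 animal. The comparisons ask which complement transcripts differ with the transgenes and which differ when neuronal farnesyltransferase is removed in their presence.

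Complement is a cascade of plasma and tissue proteins that tags surfaces for removal. In the classical pathway, C1q binds a target, its associated proteases cleave C4 and C2, and the complex so formed cleaves C3. Fragments of C3 stay on the target, where the integrin of Itgam and Itgb2 (complement receptor 3) recognises them, whereas the small released fragments act on C3ar1 and C5ar1. In brain, microglia are the main source of C1q and carry these receptors, astrocytes and other glia contribute C3 and C4, and the pathway is known for its part in synapse removal and in the response around amyloid plaques.

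Assigned counts ran from 15925432 to 21030935 per mouse. The transgene labels held, since App was 1.86-fold and Prnp, whose promoter drives the transgenes, 2.98-fold above WT in APP/PS1 mice (adjusted p = 6.7e-05 and 2.71e-09). Fntb lay at 14.1 to 32.2 normalized CPM (counts scaled by effective library size) in the WT mice, at 14.2 to 32.1 across APP/PS1 mice and at 7.84 to 14.7 across APP/PS1/FTnKO mice. In APP/PS1/FTnKO relative to APP/PS1 mice its log2 difference was -0.77 ± 0.26 (SE, adjusted p = 0.251), so this check of the Cre label did not pass the threshold. WT mouse 19622 stood apart from the other 17 mice. In it, 5 cerebellar marker genes summed to 1402 CPM against at most 61.6 elsewhere, 5 choroid plexus genes to 1364 against at most 459.8, and 6 cortical neuron genes to 3528 against at least 5725, which goes against the labelled frontal cortex. Its values are therefore given apart, and all tests below were made on the other 17 mice unless stated.

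C1qa, C1qb and C1qc lie next to each other on the minus strand of chromosome 4 (GRCm38), and no other annotated gene overlaps the 18675 bp from the start of C1qb to the end of C1qa. C1qb (ENSMUSG00000036905) occupies chr4:136880129-136886187, C1qc (ENSMUSG00000036896) chr4:136889804-136893065 and C1qa (ENSMUSG00000036887) chr4:136895917-136898803. C3 (ENSMUSG00000024164) is at chr17:57203970-57228136 and C4b (ENSMUSG00000073418) at chr17:34728380-34743882, both on the minus strand. C3ar1 (ENSMUSG00000040552, chr6:122847138-122856161) and C5ar1 (ENSMUSG00000049130, chr7:16246743-16259540) are also on the minus strand. Itgam (ENSMUSG00000030786, chr7:128062640-128118491) and Itgb2 (ENSMUSG00000000290, chr10:77530252-77565708) are on the plus strand.

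RefSeq promoter windows on GRCm38.p6, from 250 bases before to 50 after the start, were matched for 6 of the 9 genes, namely C1qb, C1qc, C3, C3ar1, C5ar1 and Itgam. The windows were searched on both strands for GAGGAA, which reads TTCCTC in the reverse direction, a core that the myeloid factor PU.1 is known to bind, and the matches in a window do not overlap each other. The motif was found in 3 of the 6 windows, those of C1qb, C1qc and Itgam, and in 28.3% of 32851 windows of the same length. The windows with a match are shown. C1qb and C1qc are neighbours whose transcripts moved together from mouse to mouse, and Itgam differed little between genotypes. The windows of C3, C3ar1 and C5ar1 hold no match and are not shown, and C3 and C5ar1 were not called between genotypes either. Matches are in capitals and the rest in lower case, 5′ to 3′ on the strand of the gene.
C1qb, chr4:136886151-136886450, minus strand: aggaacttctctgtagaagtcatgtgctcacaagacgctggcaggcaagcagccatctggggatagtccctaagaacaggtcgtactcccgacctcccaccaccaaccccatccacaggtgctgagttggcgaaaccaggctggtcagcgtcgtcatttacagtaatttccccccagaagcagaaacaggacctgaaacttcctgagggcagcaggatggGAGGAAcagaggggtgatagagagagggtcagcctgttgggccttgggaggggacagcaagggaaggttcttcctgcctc
C1qc, chr4:136892865-136893164, minus strand: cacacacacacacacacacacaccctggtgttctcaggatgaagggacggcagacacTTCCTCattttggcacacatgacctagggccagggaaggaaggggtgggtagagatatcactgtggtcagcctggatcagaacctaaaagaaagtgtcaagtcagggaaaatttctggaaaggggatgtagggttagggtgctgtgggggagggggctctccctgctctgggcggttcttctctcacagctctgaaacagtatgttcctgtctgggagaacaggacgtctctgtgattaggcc
Itgam, chr7:128062390-128062689, plus strand: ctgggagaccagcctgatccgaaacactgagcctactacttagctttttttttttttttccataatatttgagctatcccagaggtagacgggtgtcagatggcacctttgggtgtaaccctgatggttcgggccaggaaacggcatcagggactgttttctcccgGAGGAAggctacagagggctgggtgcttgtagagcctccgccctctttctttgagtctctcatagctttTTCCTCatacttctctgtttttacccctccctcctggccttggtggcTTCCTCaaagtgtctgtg
C1qb held 1 match in the forward direction, C1qc held 1 in reverse, and Itgam held 1 forward and 2 in reverse. A match describes these letters and was not tested as a binding site.

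The members spanned a wide range of abundance. Per kilobase of exon, the mean levels in WT mice were highest for C1qa, at 37.7 ± 3.22 CPM per kb (SD, n = 5), and C1qb, at 36.0 ± 4.82, and the ranges of these neighbours overlapped. C1qc followed at 16.3 ± 1.87 CPM per kb, C4b at 6.22 ± 1.02, Itgb2 at 1.99 ± 0.277 and Itgam at 1.31 ± 0.185, none of which overlapped its neighbour in this order. C3ar1 at 0.357 ± 0.0979, C5ar1 at 0.272 ± 0.0809 and C3 at 0.153 ± 0.0737 CPM per kb came last, and each overlapped the next. The order differed in APP/PS1 mice, where the mean of C4b was 48.3 ± 22.9 CPM per kb (SD, n = 6) against 37.0 ± 16.3 for C1qc, and that of C3ar1 was 1.82 against 1.57 for Itgam, with overlapping ranges in both pairs. The lowest members rested on few reads: C3 had 3 to 62 and C5ar1 8 to 40 counts in any of the 17 mice.

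The transgenes came with higher levels of most of the complement members. In APP/PS1 against WT mice, C4b rose 7.53-fold, C3ar1 4.93-fold, C1qa 2.69-fold, C1qc 2.23-fold and Itgb2 2.17-fold, and no member fell. These 5 of 9 members passed the threshold (edgeR's quasi-likelihood test, Benjamini-Hochberg adjusted p under 0.05 over 17414 genes), against 1.32% of all tested genes that were called higher. The median log2 fold change of the 9 members was 1.12, and that of all tested genes was -0.0023. In 4 members (C1qa, C1qc, C4b and C3ar1) every APP/PS1 mouse lay above every WT mouse, which held for 1.71% of all tested genes. In tissue RNA, fewer cells of a type and less RNA per cell cannot be told apart, nor can their opposites.

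**Figure D1:**
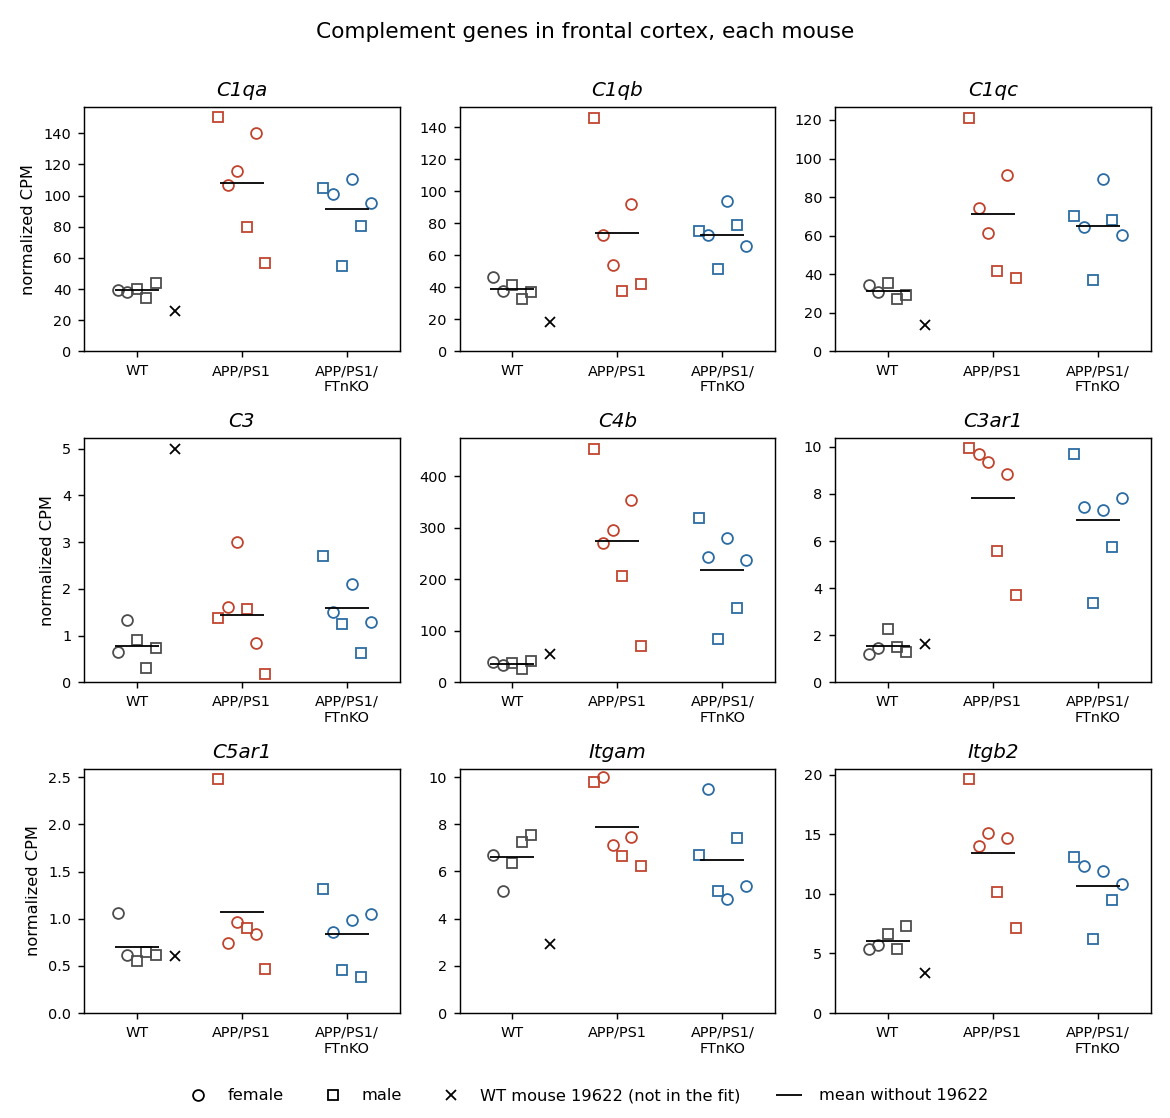
Normalized CPM of the 9 complement genes (y axis, linear, from 0) in each mouse by genotype (x axis), with circles for females, squares for males, a bar for the mean of the mice in the fit and a cross for WT mouse 19622. All 6 APP/PS1 mice lie above the 5 other WT mice for C1qa, C1qc, C4b and C3ar1, and these groups overlap for C1qb, C3, C5ar1, Itgam and Itgb2.

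Among the C1q chains, which assemble into the molecule that recognises targets, C1qa changed most. WT mice had C1qa at 34.5, 38.2, 39.3, 40.2 and 43.7 normalized CPM. APP/PS1 mice ranged from 56.9 to 150.5 with a median of 111.2. The 2 groups did not overlap, and the log2 fold change was 1.43 ± 0.20 (SE, adjusted p = 0.000757).

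C1qc, the third chain, lay at 27.2, 29.2, 31.0, 34.7 and 35.7 CPM in WT mice and between 37.9 and 121 in APP/PS1 mice (median 68.0). The groups were separate but close at the low end, and the log2 fold change was 1.16 ± 0.25 (adjusted p = 0.0253). C1qb lay at 32.6, 37.0, 37.8, 41.8 and 46.5 CPM in WT and between 37.9 and 146 in APP/PS1 mice (median 63.1). Here 2 of the 6 APP/PS1 mice fell inside the WT range, and the log2 fold change of 0.91 ± 0.27 did not pass the threshold (adjusted p = 0.128). The call of C1qc was lost when APP/PS1 mouse 16975 or 19723, or WT mouse 18944, 19053, 19718 or 19721, was left out, with adjusted p up to 0.0959. It was also lost with limma-voom (adjusted p = 0.0597), with only the genotypes compared in the fit (0.0554 adjusted) and in the fits with covariates or higher RNA integrity given below. That of C1qb was gained without APP/PS1 mouse 19619 or 19744, with adjusted p down to 0.046, and with no filter on low counts (adjusted p = 0.00286).

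C4b, the mouse C4 that C1-associated protease cleaves, showed the largest change among the members. WT mice had 25.9, 34.2, 37.5, 39.0 and 40.4 CPM, and APP/PS1 mice had 70.4 to 453 with a median of 283. The lowest APP/PS1 mouse, male 19744, was still above the highest WT mouse, and the log2 fold change was 2.91 ± 0.38 (adjusted p = 0.00042). C4b has a near-identical neighbour, C4a, 95085 bp of chromosome 17 holding both genes. How reads that match both genes were counted is unknown. C4a itself did not follow: its log2 fold change was -0.0083 ± 0.24 (adjusted p = 0.993), and the ratio of C4b to C4a counts ran from 2.44 to 4.65 in the 5 WT mice of the fit and from 6.23 to 80.2 in APP/PS1 mice, with 13.6 in WT mouse 19622.

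C3, the component at which all activation routes meet, was the scarcest member per length and its groups overlapped. WT mice had 0.2999, 0.651, 0.724, 0.914 and 1.33 CPM, and APP/PS1 mice 0.176 to 3.00 with a median of 1.47. The log2 fold change of 0.82 ± 0.48 did not pass the threshold (adjusted p = 0.461), and its 95% interval ran from -0.12 to 1.76, so that a change of the size seen for C1qa lay inside it.

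The receptors split. C3ar1, the receptor of the released C3 fragment, lay at 1.18, 1.29, 1.44, 1.499 and 2.26 CPM in WT mice and between 3.70 and 9.93 in APP/PS1 mice (median 9.10). The groups did not overlap, and the log2 fold change was 2.30 ± 0.29 (adjusted p = 0.000321), the smallest adjusted p among the members. C5ar1, the receptor of the matching C5 fragment, had 0.549, 0.611, 0.620, 0.650 and 1.06 CPM in WT mice and 0.470 to 2.48 in APP/PS1 mice (median 0.870). These groups overlapped, with a log2 fold change of 0.60 ± 0.40 (adjusted p = 0.521), which moved to 0.096 without APP/PS1 mouse 16975.

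The integrin subunits that pair into complement receptor 3 differed in the same comparison. Itgb2, the beta chain shared with other leukocyte integrins, had 5.38, 5.40, 5.72, 6.64 and 7.29 CPM in WT mice and 7.11 to 19.7 in APP/PS1 mice (median 14.4). Only APP/PS1 mouse 19744 reached into the WT range, and the log2 fold change was 1.12 ± 0.22 (adjusted p = 0.0114), a call lost without WT mouse 18944 or 19053 (adjusted p up to 0.0576). Itgam, the alpha chain, had 5.17, 6.34, 6.68, 7.25 and 7.55 CPM in WT mice and 6.23 to 9.99 in APP/PS1 mice (median 7.28). The Itgam groups overlapped, with a log2 fold change of 0.25 ± 0.18 (adjusted p = 0.551) and a 95% interval from -0.098 to 0.61. Itgam shares 3450 bp of its exons with the annotated gene Gm49368 on the same strand, whose highest count in any of the 18 mice was 1. How reads in the shared exons were assigned is likewise unknown.

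Ratios within each mouse restate the levels given above. The ratio of Itgam to Itgb2 counts was 0.903 to 1.34 (WT), 0.471 to 0.876 (APP/PS1) and 0.406 to 0.835 (APP/PS1/FTnKO), so that neither transgenic group overlapped the 5 WT mice of the fit. The ratio of C4b to C1qa was 0.751 to 0.994 (WT), 1.24 to 3.01 (APP/PS1) and 1.54 to 3.03 (APP/PS1/FTnKO), again without overlap. WT mouse 19622 had 0.866 and 2.07 for these ratios, both inside the APP/PS1 ranges. Ratios among the C1q chains changed less: C1qa to C1qb had medians of 1.01 (WT), 1.49 (APP/PS1) and 1.28 (APP/PS1/FTnKO), and their ranges overlapped. The ratios were computed after the levels had been seen and carry no test. The share of all gene pairs whose ratios did not overlap was not computed.

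Removing neuronal farnesyltransferase was not accompanied by a detectable change in any member. In APP/PS1/FTnKO against APP/PS1 mice, 0 of the 9 members passed the threshold in edgeR, 0 had an unadjusted p under 0.05, and DESeq2 and limma-voom each gave 0 and 0 as well. Of all tested genes, 0.327% were called in either direction, so 0 of 9 is close to the share of all genes. Fntb, the deleted gene, was not called by edgeR either (adjusted p = 0.251). The fitted values were below 0 for 8 of the 9 members, with a median log2 fold change of -0.25. Microglial markers lay on the same side in this comparison, with 12 of 12 homeostatic genes (median log2 fold change -0.25, 5 with an unadjusted p under 0.05, 0 called by edgeR) and 9 of 10 activated genes below 0. So did 5 of 5 reactive astrocyte genes (median -0.21). Of all 17414 genes, 8797 lay below 0 and 2003 had an unadjusted p under 0.05 in edgeR. With the homeostatic list as a covariate, the members' values turned positive for C1qa (0.17), C1qb (0.48), C1qc (0.36), C4b (0.42), C3ar1 (0.23), C5ar1 (0.29) and Itgb2 (0.088), and none was called. The part of microglia or astrocytes in the members' values was not tested. APP/PS1/FTnKO mice had C1qa at 55.0 to 110.4 CPM (median 98.4), inside the APP/PS1 range except at its lower end, and the log2 fold change was -0.25 ± 0.18 (adjusted p = 0.659).

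For C4b, APP/PS1/FTnKO mice had 85.0 to 319 CPM (median 241), and the log2 fold change of -0.34 ± 0.32 had a 95% interval from -0.97 to 0.29. For C3ar1 they had 3.36 to 9.69 CPM (median 7.37), and the interval around -0.18 ran from -0.64 to 0.29. The lower bounds left room for a fall of up to these sizes, and the upper bounds for a small rise.

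Itgb2 had 6.22 to 13.1 CPM (median 11.4) in APP/PS1/FTnKO mice, with a log2 difference from APP/PS1 of -0.34 ± 0.20, the smallest adjusted p of the members (0.564) and an interval from -0.73 to 0.050. Itgam had 4.83 to 9.51 CPM and a difference of -0.27 ± 0.17 (adjusted p = 0.592). C1qb and C1qc differed by -0.024 ± 0.25 and -0.14 ± 0.23, C5ar1 by -0.34 ± 0.37 and C3 by 0.16 ± 0.42 on the log2 scale, and the groups overlapped for all 9 members.

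**Figure D2:**
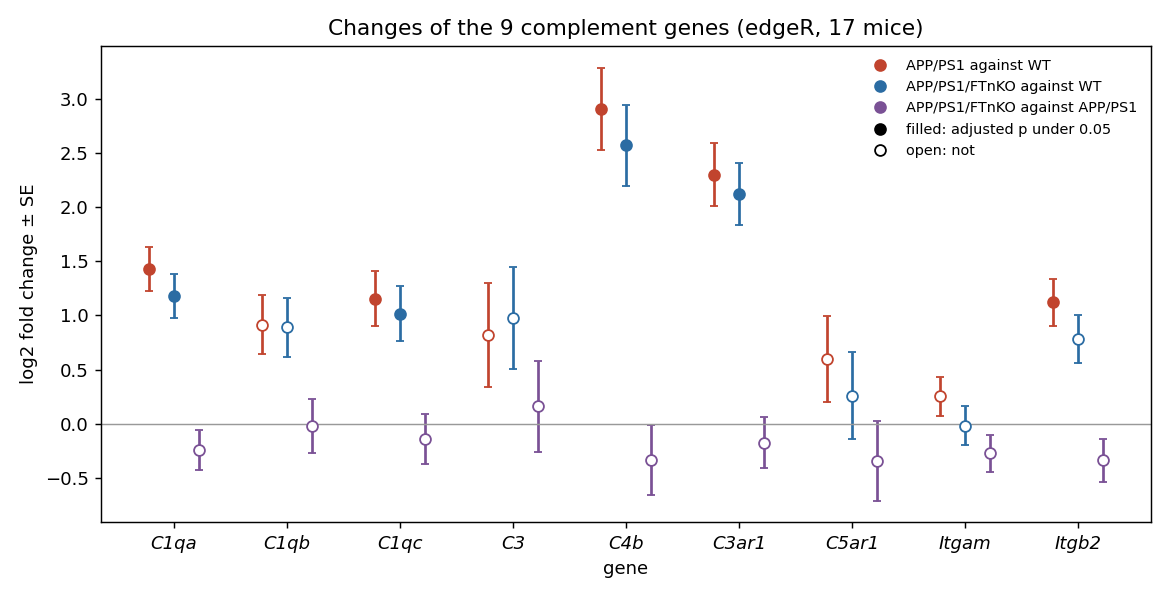
Log2 fold change (y axis) with its SE for the 9 complement genes (x axis) in the 3 comparisons, fitted in 17 mice, filled where the adjusted p was under 0.05. C4b (2.91 and 2.57) and C3ar1 (2.30 and 2.13) lie highest against WT, and no point is filled for APP/PS1/FTnKO against APP/PS1.

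Against the same WT mice, the double mutants had 4 members above the threshold. C4b rose 5.95-fold, C3ar1 4.37-fold, C1qa 2.27-fold and C1qc 2.02-fold (adjusted p = 0.00161, 0.00091, 0.00445 and 0.0339). Of all tested genes 2.22% were called higher in this comparison, which shares its WT mice with that of APP/PS1. Every APP/PS1/FTnKO mouse lay above every WT mouse for these 4 genes and for C1qb, against 2.75% of all tested genes. C1qb, at 51.2 to 94.0 CPM, had a log2 fold change of 0.89 ± 0.27 (adjusted p = 0.0733), and Itgb2 one of 0.78 ± 0.22 (adjusted p = 0.0551). Both passed the threshold in DESeq2, where 6 members and 1333 of all genes were called in either direction, against 674 genes in edgeR.

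C3 and C5ar1 had log2 fold changes of 0.98 ± 0.47 (adjusted p = 0.236) and 0.26 ± 0.40 (adjusted p = 0.753) in the double mutants against WT, and Itgam one of -0.020 ± 0.18 (adjusted p = 0.963). The call of C1qc was lost in 8 of the 17 fits that each left out 1 mouse (APP/PS1/FTnKO mice 16974, 18943, 19394 and 19720 and WT mice 18944, 19053, 19718 and 19721), with adjusted p up to 0.0933. Itgb2 gained a call without APP/PS1/FTnKO mouse 18973 or APP/PS1 mouse 16975 or 19744, and C1qb without APP/PS1 mouse 16975.

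Few genes were called between the sexes, and no member was among them. With genotype in the fit, 8 of 9 members were higher in females by point estimate, with log2 differences (female minus male) from -0.019 for Itgam to 0.50 for C3. Among the markers described below, 10 of 10 activated microglia genes (median log2 difference 0.34, 3 with an unadjusted p under 0.05) and 5 of 5 reactive astrocyte genes (median 0.22, 2 with such a p) also had positive values, and edgeR called none. No member passed the threshold in edgeR, DESeq2 or limma-voom, 0, 0 and 1 members had an unadjusted p under 0.05, and 0.0689% of all tested genes were called. In the interaction of sex and genotype, 0 of 9 members were called for APP/PS1 against WT and 0 for APP/PS1/FTnKO against APP/PS1, with 0 at an unadjusted p under 0.05 in each, and 0% of all tested genes were called in either (705 and 578 genes had an unadjusted p under 0.05). DESeq2 called 0 members there too.

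Levels of microglial and reactive astrocyte marker genes moved with the same groups. The 12 homeostatic microglia genes, none of them a complement member, summed to 434 to 504 CPM (WT), 567 to 912 (APP/PS1) and 432 to 689.6 (APP/PS1/FTnKO). Of these 12 genes, 6 were called higher against WT in APP/PS1 and 3 in APP/PS1/FTnKO mice. The 10 activated microglia genes summed to 314 to 336 CPM (WT), 508 to 1038 (APP/PS1) and 399 to 837 (APP/PS1/FTnKO). Against WT, 9 of 10 were called higher in each transgenic group. The 5 reactive astrocyte genes, Gfap and Serpina3n among them, summed in the same order to 139 to 202, 393 to 1419 and 345 to 1216 CPM, with 3 of 5 called higher in each. Of the 6 astrocyte genes outside the reactive list, edgeR called 0 in each (1 and 0 with an unadjusted p under 0.05), with median log2 fold changes of 0.13 and 0.15.

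Markers of other myeloid cells stayed low. The 6 border macrophage genes summed to 6.56 to 8.50 CPM (WT), 6.00 to 10.5 (APP/PS1) and 5.11 to 10.2 (APP/PS1/FTnKO), and edgeR called 0 of 6 in each comparison with WT, with 0 at an unadjusted p under 0.05. Of 9 monocyte and neutrophil genes, 1 passed the filter, the list summed to at most 5.46 CPM, and the neutrophil marker Ly6g had no count in any mouse. The part of microglia or astrocyte numbers in the complement differences was not tested.

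Set against the homeostatic microglia list of the same mouse, C1qa, C4b and C3ar1 separated both transgenic groups from the 5 WT mice of the fit. The share of all tested genes that did so on this scale was not computed. Per 1000 CPM of that list, C1qa was 77.9 to 88.7 (WT), 100.4 to 165.6 (APP/PS1) and 118 to 166 (APP/PS1/FTnKO), and C4b was 58.5 to 81.9, 124 to 497 and 197 to 472. C3ar1 was 2.35 to 4.76, 6.53 to 13.7 and 7.80 to 14.4 on this scale. Neither transgenic group overlapped these WT mice, and the transgenic groups overlapped each other. WT mouse 19622, at 105 for C1qa and 216 for C4b, lay inside the APP/PS1 range for both genes, and at 6.43 for C3ar1 it lay just under it.

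The other members were less separate on this scale. C1qb and C1qc overlapped WT in APP/PS1 mice (57.1 to 160.1 against 73.6 to 92.3, and 63.0 to 133 against 59.3 to 75.4) but not in APP/PS1/FTnKO mice (104 to 142 and 86.2 to 135). Itgb2 overlapped in both. Itgam had a median of 13.4 in WT and 10.4 in each transgenic group, with overlap. With the mean log2 level of the list as a covariate, 0 of 9 members were called in APP/PS1 against WT, where C1qa had a log2 fold change of 0.51 (adjusted p = 0.572), C4b 1.27 (0.553 adjusted) and C3ar1 1.35 (0.519 adjusted). In that fit 8 of all tested genes were called in APP/PS1 against WT. In APP/PS1/FTnKO against WT 75 genes were called, C1qa, C4b and C3ar1 among them.

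**Figure D3:**
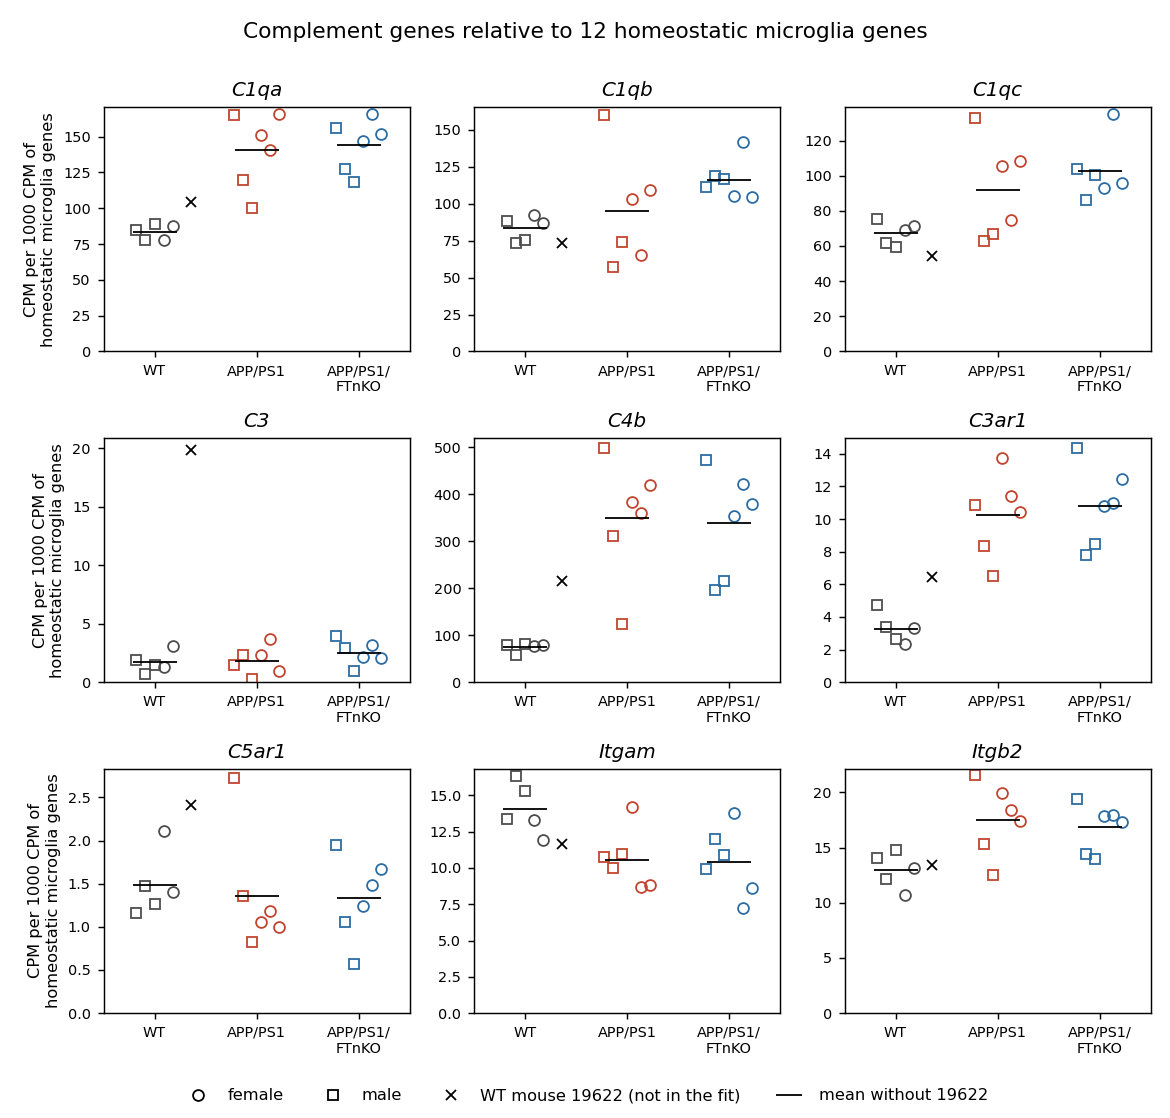
CPM of each complement gene per 1000 CPM summed over 12 homeostatic microglia genes of the same mouse (y axis, from 0) by genotype (x axis), with circles for females, squares for males, bars for means without 19622 and a cross for WT mouse 19622. C1qa, C4b and C3ar1 of both transgenic groups lie above the 5 other WT mice, and Itgam does not.

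RNA integrity numbers (RIN, from the labels) were 8.5 to 8.8 (WT), 7.7 to 8.7 (APP/PS1) and 7.6 to 8.7 (APP/PS1/FTnKO). Within the APP/PS1 group, male 16975 (RIN 7.7) was the highest mouse for 7 of the 9 members and male 19744 (RIN 8.6) the lowest for 8. Within APP/PS1/FTnKO mice, male 16974 (RIN 7.6) was highest for 5 members and male 18973 (RIN 8.6) lowest for 6. With RIN as a covariate, C1qa, C4b and C3ar1 were called in both comparisons with WT, where 84 (APP/PS1) and 388 (APP/PS1/FTnKO) of all tested genes were called. For these members the log2 fold changes in APP/PS1 were 1.08, 2.27 and 1.81 (adjusted p = 0.00762, 0.00191 and 0.000679). C1qc and Itgb2 had 0.72 and 0.72 in that fit (adjusted p = 0.352 and 0.163). In the mice with RIN of at least 8, a limit set after seeing the data, C1qa, C4b and C3ar1 were the members called in APP/PS1 against WT. In that fit 120 of all tested genes were called. RIN and genotype are partly confounded in these mice, and beyond these fits the part of RNA integrity in the differences was not tested.

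**Figure D4:**
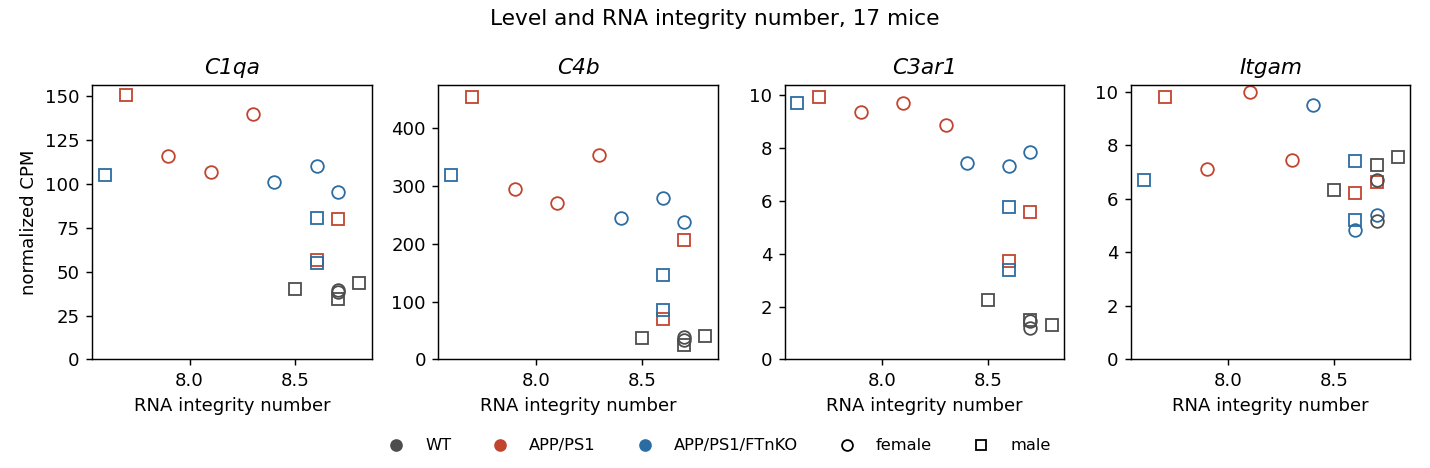
Normalized CPM (y axis, from 0) against RNA integrity number (x axis) in 17 mice for C1qa, C4b, C3ar1 and Itgam, colored by genotype, with circles for females and squares for males. The WT mice lie between 8.5 and 8.8, and the transgenic mice with the same numbers lie above them for C1qa, C4b and C3ar1.

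Of 54 further complement genes listed by role, 33 were tested, and 2 were called in APP/PS1 against WT, both higher, where 1.32% of all tested genes (230 of 17414) were. Their median log2 fold change was 0.048, against 1.12 for the 9 members. The called genes were Itgax, the alpha chain of complement receptor 4, and Clu, clusterin, a fluid-phase inhibitor of the terminal complex. Itgax is also one of the 10 activated microglia genes above.

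Itgax lay at 0.381 ± 0.221 CPM (SD, n = 5) in WT mice, resting on 2 to 12 counts, and at 18.2 ± 6.07 (n = 6) in APP/PS1 and 16.4 ± 7.98 (n = 6) in APP/PS1/FTnKO mice. Its log2 fold change was 5.47 ± 0.48 in APP/PS1 (adjusted p = 5.83e-06) and 5.25 ± 0.48 in APP/PS1/FTnKO mice (adjusted p = 1.24e-05). Thus the alpha chain of receptor 4 differed far more than Itgam, that of receptor 3. Clu was at 701 ± 23.6 CPM (WT), 955 ± 149 (APP/PS1) and 931 ± 126 (APP/PS1/FTnKO). Its log2 fold changes against WT were 0.44 ± 0.10 (adjusted p = 0.0431) and 0.40 ± 0.10 (adjusted p = 0.0397). The call of Clu was lost in 13 of 17 fits that left out 1 mouse in APP/PS1 against WT (all but those without APP/PS1 mouse 19619 or 19744 or APP/PS1/FTnKO mouse 16974 or 18973, adjusted p up to 0.15) and in 9 of 17 in APP/PS1/FTnKO against WT (those without APP/PS1/FTnKO mouse 16974, 18943, 19394 or 19720, APP/PS1 mouse 19553 or WT mouse 18944, 19053, 19718 or 19721, adjusted p up to 0.108).

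By role, the genes tested were 9 of 15 for the classical and lectin start, 1 of 3 for the alternative pathway, 2 of 7 for the terminal pathway, 4 of 8 soluble regulators, 5 of 6 membrane regulators, 4 of 6 other receptors, 5 of 5 inhibitors known from neurons and 3 of 4 C1q-like proteins, and edgeR called no further gene of them in the comparisons of genotypes. In APP/PS1 against WT 5 of the 33 had an unadjusted p under 0.05, Itgax and Clu included, as had 2431 of all 17414 genes. The proteases that cut C4 lie in the first role: C1s1 had a log2 fold change of -0.15 ± 0.29 (adjusted p = 0.86) and C1ra, its partner in the C1 complex, one of -0.15 ± 0.24 (adjusted p = 0.82). C1s2 went the other way at 0.57 ± 0.36 (adjusted p = 0.505), and Masp2 was at -0.056 ± 0.11 (adjusted p = 0.868). Cd46, a membrane regulator, and Masp2 had the smallest p of the list in APP/PS1/FTnKO against APP/PS1, at 0.29 ± 0.11 (adjusted p = 0.304) and 0.25 ± 0.11 (adjusted p = 0.37). In the annotation Masp2 shares 1817 bp of exon with Tardbp, Cd46 shares 1079 bp with A330023F24Rik and C1s1 shares 576 bp with Gm16567, each on the other strand, and the part of such overlaps was not tested. Cd46 also had the third smallest p in APP/PS1/FTnKO against WT, at 0.35 ± 0.11 (adjusted p = 0.0901), and it was called there by DESeq2 (adjusted p = 0.0448) and with only the genotypes compared in the fit (0.0464 adjusted). Susd4, one of the neuronal inhibitors, followed Masp2 in APP/PS1/FTnKO against APP/PS1, at -0.12 ± 0.052 (adjusted p = 0.404). No gene of the list was called there by edgeR, DESeq2 or limma-voom, and 3 had an unadjusted p under 0.05 in edgeR, as had 2003 of all 17414 genes.

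The neuronal inhibitors Csmd1, Csmd2, Csmd3 and Srpx2 had fitted values below 0 in both transgenic groups against WT. The median log2 fold change of the 5 inhibitors was -0.18 in APP/PS1 and -0.25 in APP/PS1/FTnKO mice, where 0 and 2 of them had an unadjusted p under 0.05 (of all 17414 genes, 2431 and 3852) and none passed the threshold. The 6 cortical neuron markers lay below 0 for 5 and 6 genes in these comparisons, with medians of -0.059 and -0.23 and with 0 and 1 called by edgeR (0 and 2 with an unadjusted p under 0.05). The part of neuronal RNA in the inhibitors' values was not tested.

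**Figure D5:**
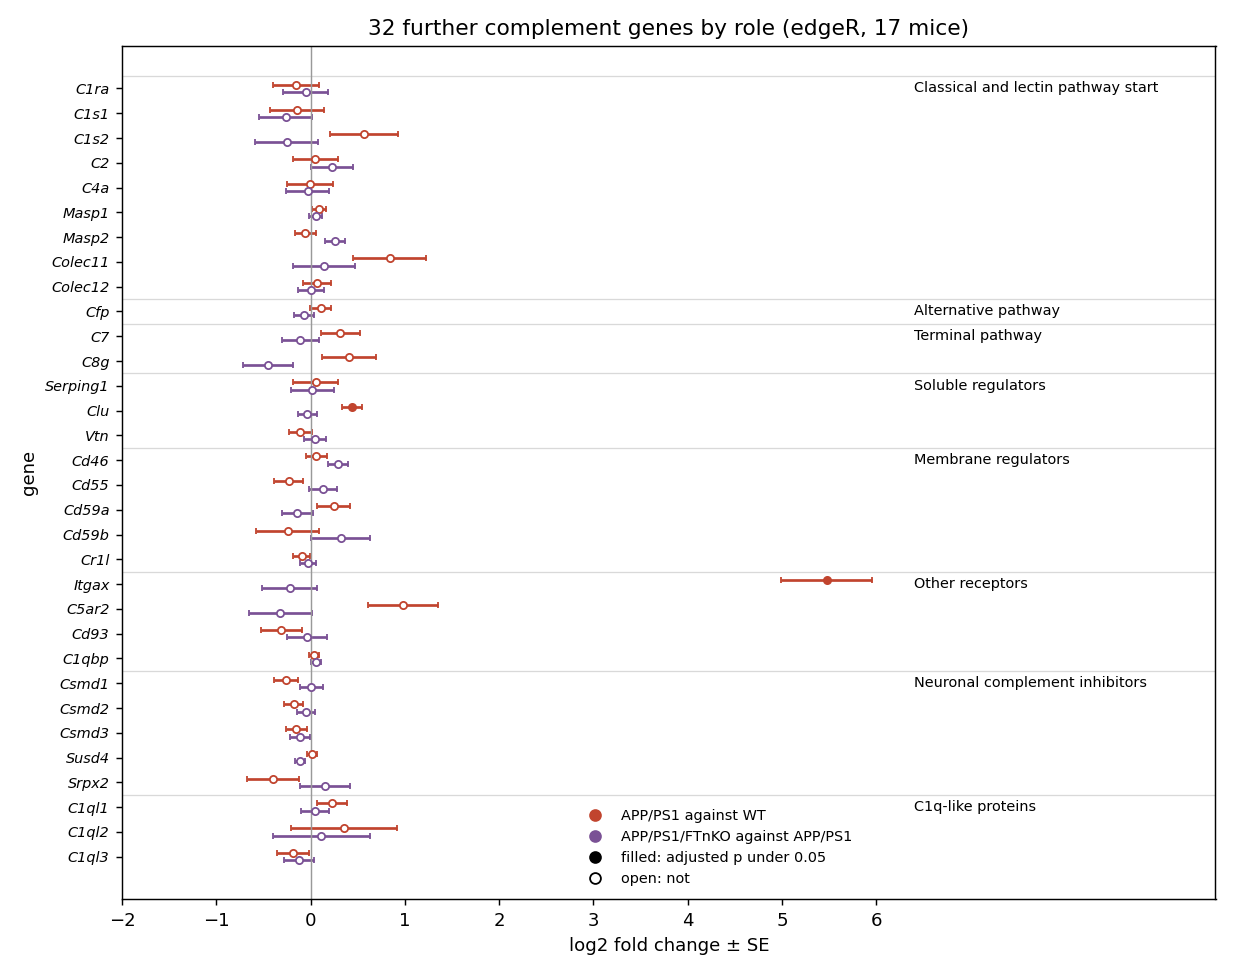
Log2 fold change with its SE (x axis) of 32 of the 33 tested further complement genes (y axis), grouped by role, for APP/PS1 against WT and APP/PS1/FTnKO against APP/PS1, filled where the adjusted p was under 0.05. Itgax (5.47) and Clu (0.44) are the filled points, both in APP/PS1 against WT.

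From mouse to mouse within genotype and sex, the members fell into tighter and looser pairs. Over the residuals of 17 mice, C1qa and Itgb2 (Pearson r = 0.972), C1qa and C4b (0.961) and C1qb and C1qc (0.959) were closest, whereas Itgam had r of 0.023 to 0.55 with the other members and C3 of 0.023 to 0.63. Of all tested genes, those most like the mean of the C1q chains were Pfdn5 (a prefoldin chaperone subunit, r = 0.953), Cd37 (a leukocyte tetraspanin, 0.951), Rpl28 (a ribosomal protein, 0.944), 4931406C07Rik (0.944) and Fcgr1 (an IgG receptor, 0.941). Those most like C4b were Serpina3n (a protease inhibitor of reactive astrocytes, 0.964), C1qa (0.961), Man2b1 (a lysosomal mannosidase, 0.960), Cd9 (a tetraspanin, 0.959) and Cd68 (a lysosomal protein of macrophages, 0.954). Those most like C3 were Ermn (an oligodendrocyte protein, 0.918), Carns1 (carnosine synthase, 0.917), Lbp (a lipopolysaccharide-binding protein, 0.916), Cish (0.901) and Cdr2 (0.898). The values share library, depth and RNA integrity, and are a description with no test.

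WT mouse 19622 differed from the other WT mice in these genes as well. It had C1qa at 26.2, C1qb at 18.3 and C1qc at 13.6 CPM, below all 5 of them, and Itgam and Itgb2 at 2.92 and 3.37, also below. C3 and C4b went the other way, at 4.98 CPM (99 counts) and 54.2 CPM. Its reactive astrocyte list summed to 550.3 CPM against 139 to 202 in the other WT mice, and 5 genes of meninges and fibroblasts summed to 112 against 48.0 to 67.6. Its 5 choroid plexus genes summed to 1364 CPM against 8.50 to 75.4 in the other WT mice. The part of these lists in its C3 and C4b values was not tested. Its homeostatic microglia list summed to 251 CPM, under the lowest of the other WT mice. With this mouse added, the same 5 and 4 members were called against WT in the 2 comparisons.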

How the data were processed

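Frontal cortex RNA of 18 mice was sequenced as stranded paired-end libraries by the authors, who deposited whole-number counts per gene with no normalization. Per the labels' processing notes and the study's methods, reads were checked with FastQC 0.11.7, trimmed with Trimmomatic 0.33, aligned to GRCm38 with HISAT2 2.1.0 and counted with featureCounts. The sources used here do not give its version, annotation, strand and multi-mapping settings for counting, which limits paralogs and overlapping genes. The study's own test was DESeq2 with sex and genotype.

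Here, counts were filtered with filterByExpr (minimum count 10), TMM-normalized and tested in edgeR 4.0.16 (quasi-likelihood F test, R 4.3.3) with sex and genotype in 1 fit of 17 mice. P-values were adjusted by the Benjamini-Hochberg method over 17414 genes, with a threshold of 0.05. WT mouse 19622 was kept apart, and its CPM use the scaling of all 18 mice. Normalized CPM are counts scaled by the TMM library size, and residual correlations used log2 CPM with a prior count of 2. Positions and exon lengths came from GENCODE annotation of GRCm38 matched on gene ID (99.4% of the IDs), and promoters from RefSeq. Totals of about 15925432 to 21030935 counts set the counting precision. No column of the table was left unused. The code was tested on simulated counts.

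The members and gene lists were chosen with earlier results of these data known. All 9 members were named, with every further complement gene called in a comparison or among the 3 smallest p of one, the 5 genes most alike to the C1q mean, C3 and C4b, and Fntb, App and Prnp as checks. Some items, 1 gene of that rule among them, are not reported here. Genes outside this rule are named as examples of their role. The alternatives tried included RLE scaling, DESeq2 1.42.0, limma-voom from limma 3.58.1, no filter, a minimum count of 50, no sex term, covariates, other sets of mice and each of the 17 mice left out. Samples of 1 group were separate mice, and replicate numbers carry no pairing.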

Additional observations from a re-analysis of the deposited data

Results flagged for a closer look

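C5ar1 in APP/PS1 mouse 16975 was at 2.48 normalized CPM, and the other 5 APP/PS1 mice lay between 0.470 and 0.970, so this mouse stood apart within its group. C5ar1 in WT mouse 18944 was at 1.06 CPM, apart from the other 4 WT mice of the fit at 0.549 to 0.650. Chance gives such a gap in about 1 in 20 groups, and 27 groups were looked at. Both values rest on few reads, C5ar1 having 8 to 40 counts in a mouse.

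WT mouse 19622, which was left out of the 17-mouse fit, had C3 at 4.98 CPM, above the highest of the other 17 mice (3.00 CPM), and C4b at 54.2 CPM, above the highest WT mouse of the fit (40.4 CPM). These values come from 1 mouse and were not tested.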

How the results depend on the processing

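Across 11 alternatives and 17 fits that each left out 1 mouse, C1qa, C4b and C3ar1 kept their calls against WT in every fit except that with the homeostatic microglia list as a covariate, in APP/PS1 against WT. Of 455 log2 values of single genes under the 11 alternatives, 392 kept direction and side of the threshold, 21 lost a call, 12 gained one and 30 changed sign. Members called in APP/PS1 against WT (5) became 4 with limma-voom and with only the genotypes compared, 6 with no filter, 3 with RIN as a covariate, 0 with the microglia list and 3 with RIN of at least 8 (added after seeing the data), and 3 to 6 with 1 mouse left out. In APP/PS1/FTnKO against WT the 4 calls became 6 in DESeq2, with no filter and with only the genotypes compared, 5 with the stricter filter, no sex term and RIN of at least 8, 3 with either covariate, and 3 to 6 with 1 mouse left out, and against APP/PS1 0 stayed 0. The 2 further complement genes called in APP/PS1 against WT became 1 under limma-voom, either covariate and RIN of at least 8, and 1 to 2 with 1 mouse left out, while the 2 in APP/PS1/FTnKO against WT became 1 with 18 mice, either covariate and RIN of at least 8, 3 in DESeq2 and with only the genotypes compared, and 1 to 3 with 1 mouse left out.

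Log2 values that changed sign were as follows. With 18 mice, Masp2 was 0.0076 in APP/PS1 against WT and Itgam 0.13 in APP/PS1/FTnKO against WT. With limma-voom, C1qb was 0.12 in APP/PS1/FTnKO against APP/PS1. With RIN as a covariate, APP/PS1 against WT gave C5ar1 -0.034, Masp2 0.15 and Cd46 -0.099, APP/PS1/FTnKO against APP/PS1 gave C1qb 0.24, C1qc 0.086, C3ar1 0.032 and Clu 0.042, and APP/PS1/FTnKO against WT gave C5ar1 -0.10. With the microglia list, APP/PS1 against WT gave C1qb -0.15, C5ar1 -0.75, Itgam -0.24 and Cd46 -0.28. In the same fit APP/PS1/FTnKO against APP/PS1 gave C1qa 0.17, C1qb 0.48, C1qc 0.36, C4b 0.42, C3ar1 0.23, C5ar1 0.29, Itgb2 0.088, Itgax 0.36 and Clu 0.15, and APP/PS1/FTnKO against WT gave C5ar1 -0.46. With RIN of at least 8, APP/PS1 against WT gave Masp2 0.023 and Cd46 -0.047, APP/PS1/FTnKO against APP/PS1 gave C1qb 0.25 and C1qc 0.055, and APP/PS1/FTnKO against WT gave C5ar1 -0.059.

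With 1 mouse left out, values that crossed 0 ranged, in APP/PS1/FTnKO against APP/PS1, from -0.15 to 0.37 for C1qb, -0.26 to 0.16 for C1qc, -0.16 to 0.47 for C3, -0.55 to 0.12 for C5ar1, -0.10 to 0.021 for Clu and -0.33 to 9.60e-06 for Itgax. They ranged from -0.16 to 0.049 for Itgam in APP/PS1/FTnKO against WT, and in APP/PS1 against WT from -0.043 to 0.14 for Cd46 and -0.026 to 0.039 for Susd4. The cause of these changes was not tested.

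All genes called (261, 57 and 674 in APP/PS1 against WT, APP/PS1/FTnKO against APP/PS1 and APP/PS1/FTnKO against WT) became 207, 2 and 261 with 18 mice, 468, 250 and 1333 in DESeq2, 452, 104 and 971 with no filter, 84, 261 and 388 with RIN, 8, 188 and 75 with the microglia list, 190, 5 and 859 with only the genotypes compared, and 120, 14 and 368 with RIN of at least 8. With 1 mouse left out they ran from 124 to 465, 10 to 81 and 206 to 987. C3 and C5ar1, at 3 to 62 counts, were not tested under the stricter filter, and DESeq2 gave C5ar1 no adjusted p in APP/PS1/FTnKO against WT. RIN, genotype and the microglia list are partly confounded in these mice, and 5 or 6 mice a group limit precision.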

Other observations

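The summed levels of further marker lists were as follows. The 6 cortical neuron genes summed to 6957 to 9135 CPM (WT), 6470 to 8911 (APP/PS1) and 5725 to 7344 (APP/PS1/FTnKO). The 6 astrocyte genes outside the reactive list summed to 3922 to 4825 CPM (WT), 3849 to 4824 (APP/PS1) and 3838 to 4899.7 (APP/PS1/FTnKO). The 6 oligodendrocyte genes summed to 3735 to 5671 CPM (WT), 3369 to 6934 (APP/PS1) and 4722 to 7518 (APP/PS1/FTnKO), against 10757.5 in WT mouse 19622. The 4 endothelial genes summed to 160.4 to 197 CPM (WT), 142 to 208 (APP/PS1) and 125 to 213 (APP/PS1/FTnKO). The 5 choroid plexus genes summed to 459.8 CPM in APP/PS1 mouse 19554, where the group median was 15.0. The 5 red blood cell genes summed to 1028 CPM in WT mouse 19101, where the group median was 143. Of 7 lymphocyte genes 1 passed the filter on low counts.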
